A study of Danio rerio with 6 samples.

Results

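Sox10 ChIP-seq peaks of zcrest, a zebrafish melanoma cell line, lay in dense runs, and the runs of 20 to 49 peaks are described here. Sox10 peaks on numbered chromosomes were joined wherever they lay 5000 bases or less apart, edge to edge, and joined groups with 20 to 49 members were kept. This gave 27 clusters with 793 peaks, 18.9% of the 4196 sox10 peaks on numbered chromosomes. The members were thus selected on the positions of the sox10 peaks themselves, so cluster size and packing are given as a description, with no test. H3K27ac was not used in choosing them.

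The series profiled chromatin by immunoprecipitation and sequencing (ChIP-seq) in 6 libraries, 3 of them ChIP and 3 input, with a single library for each group. In zcrest, sox10 and acetylation of histone H3 at lysine 27 (H3K27ac) were mapped after more than 20 passages in culture, and the founder fish is labelled p53/BRAF/Na with crestin:EGFP and MiniCoopR alone. H3K27ac was also mapped in a freshly dissected primary melanoma whose founder is labelled p53/BRAF/Na with MiniCoopR;mitf:EGFP. Both sources therefore carried p53/BRAF/Na and MiniCoopR, and each is 1 line or 1 tumor. MiniCoopR is a Tol2 vector that carries a mitfa minigene, so that cells which receive it regain the melanocyte regulator Mitfa. Crestin:EGFP reports neural crest identity. The tumor was taken as bulk tissue, so cells other than melanoma cells may be present. The age of the fish is not given in the labels.

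Sox10 is a transcription factor with an HMG-box DNA-binding domain. It is needed for the neural crest and for the melanocytes and glia that arise from it, and it stays active in many melanomas. H3K27ac marks active promoters and enhancers, and runs of enhancers that carry it are often described at genes that define a cell type.

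The sox10 list held 4202 peaks, 6 of them on the mitochondrial sequence, and the H3K27ac lists held 50338 peaks in zcrest and 59760 peaks in the tumor. All positions are on the Zv9 assembly. Each peak carries a fold enrichment, which is its summit over the caller's own background, and a −log10 q. Both are the authors' values and are used here only within their own list. The control used in calling is not given in the sources used here, and whether the line carries extra copies of these stretches was not tested. Read depth is unknown from these lists, and there are no replicates, so no value below carries an SD. Intervals are exact 95% intervals for counting error alone, and peaks next to each other are not independent observations. No gene annotation of Zv9 was used here, so the clusters are named by position alone and the sources could not be checked against marker genes.

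The clusters lay on 14 of the 25 chromosomes. Chromosome 10 held 4 of them with 149 peaks, and chromosomes 7, 8, 9 and 24 held 3 each. The fullest was chr7:70981334-71006984 with 47 peaks. It was followed by chr10:2486352-2506884 and chr3:48091835-48102370 with 45 peaks each, chr10:23065283-23089692 with 43 and chr10:12007656-12031444 with 40. The next were chr8:41349461-41363288 with 37 peaks, chr9:9327433-9346849 with 35, chr4:26184559-26200427 and chr14:17177980-17191699 with 34 each, and chr24:11726435-11748009 with 32. At the lower limit 4 clusters had exactly 20 peaks, and 1 cluster just outside had 19. At the upper limit the smallest cluster that was left out had 52 peaks.

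**Figure D1:**
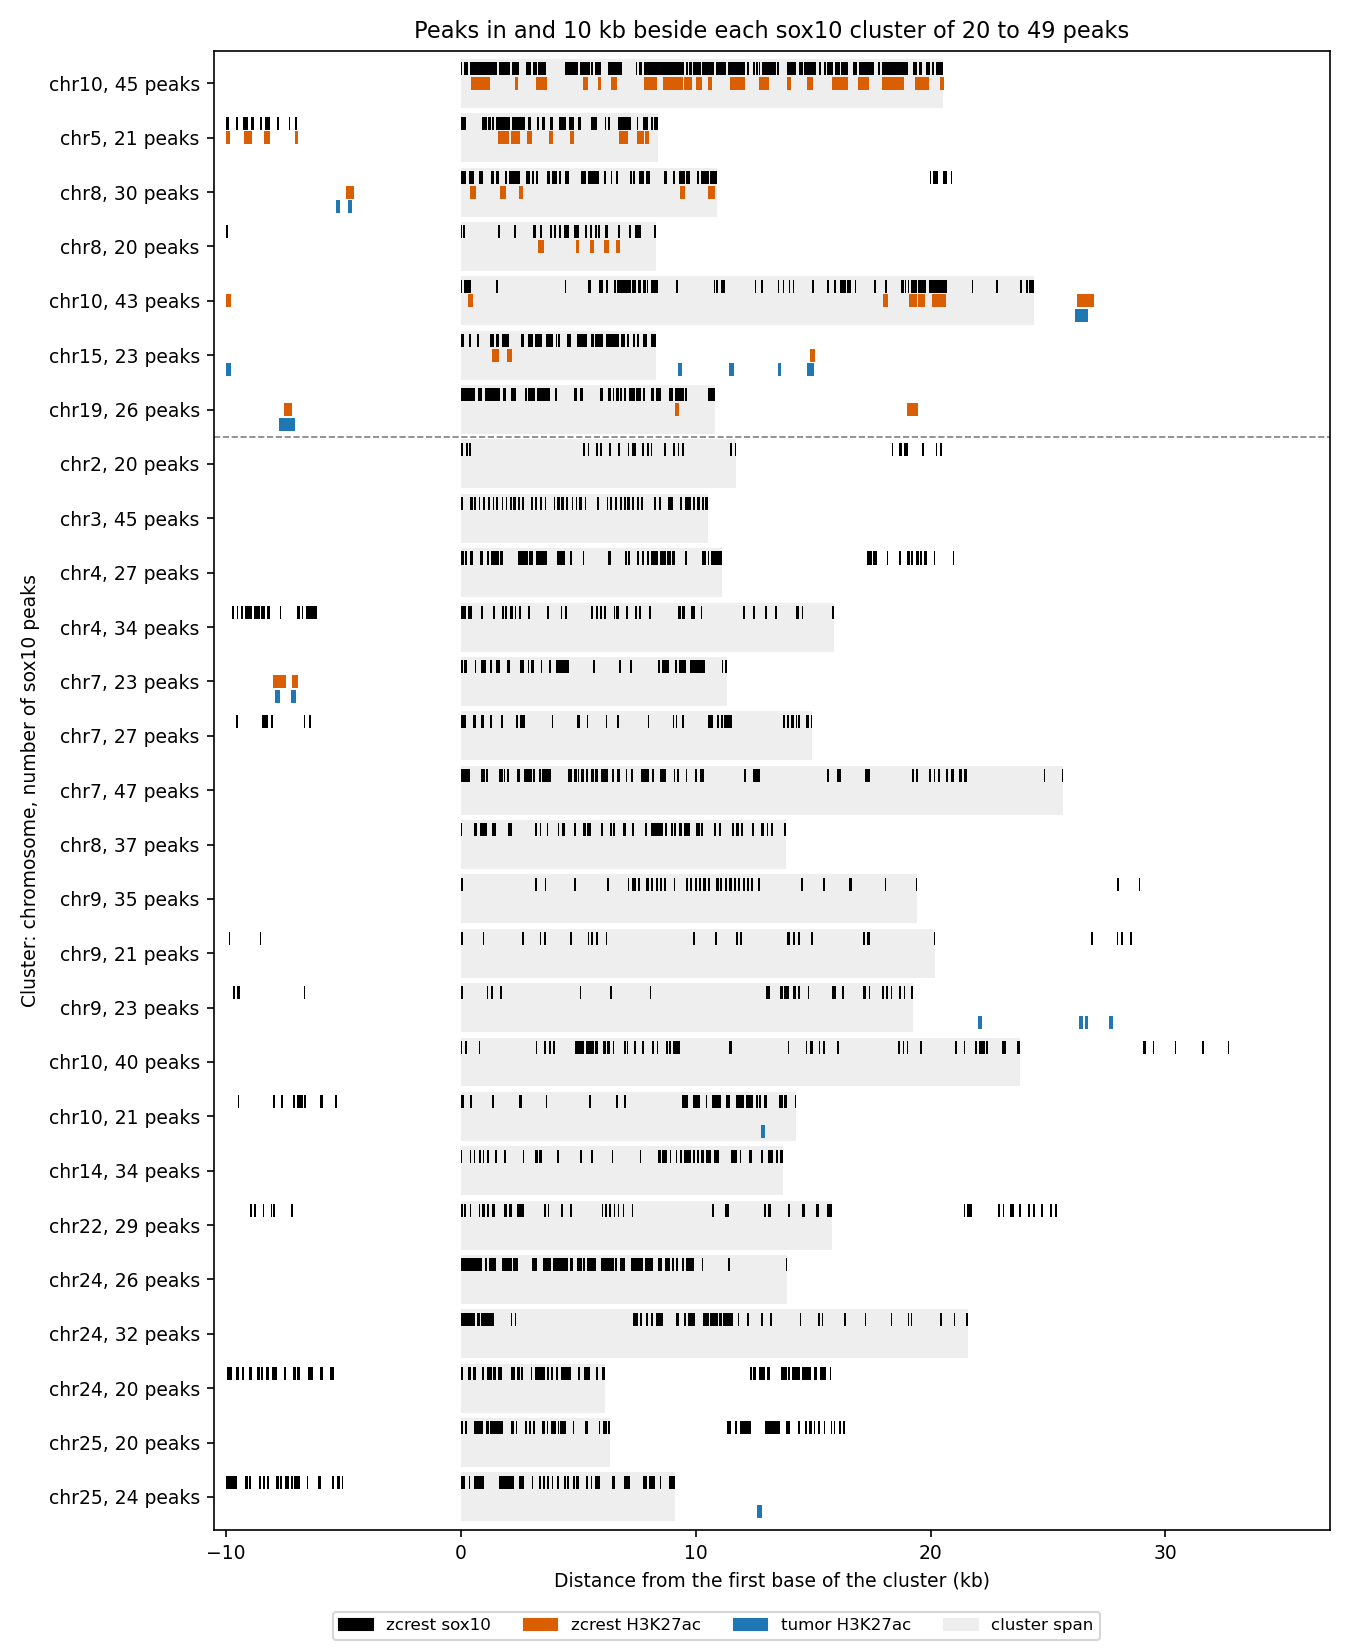
Map of the 27 sox10 clusters, 1 row each, against distance from the first base of the cluster in kb. Grey bars are the cluster spans, and black, orange and blue marks are peaks of zcrest sox10, zcrest H3K27ac and tumor H3K27ac, with 10 kb shown on either side and very short peaks slightly widened to be visible. The 7 clusters above the dashed line hold zcrest H3K27ac summits, from 20 in the top row to 1 in the row just above the line. The tumor track is empty inside all clusters but the 21-peak cluster on chromosome 10.

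Clusters were from 6.15 to 25.7 kb long, with a median of 13.8 kb, and together spanned 390 kb. The longest were chr7:70981334-71006984 at 25.7 kb, chr10:23065283-23089692 at 24.4 kb, chr10:12007656-12031444 at 23.8 kb, chr24:11726435-11748009 at 21.6 kb and chr10:2486352-2506884 at 20.5 kb. The shortest were chr24:12452144-12458290 at 6.15 kb, chr25:27504351-27510691 at 6.34 kb, chr8:32011165-32019464 at 8.30 kb, chr15:3544302-3552608 at 8.31 kb and chr5:69775867-69784260 at 8.39 kb. These longest clusters held 32 to 47 peaks and these shortest 20 to 23. Clusters with equal numbers of peaks could still differ in length: 45 peaks took 20.5 kb on chromosome 10 and 10.5 kb on chromosome 3.

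Sox10 peaks covered 29.0% of the bases in the clusters, but the cover differed widely among them. The densest was chr10:2486352-2506884, where peaks filled 71.4% of the span and the widest peak ran for 1693 bases. After it came chr5:69775867-69784260 at 51.3%, chr15:3544302-3552608 at 50.9%, chr19:7404697-7415505 at 50.7% and chr24:11694942-11708833 at 47.9%. The sparsest were 3 neighbours on chromosome 9, chr9:9355366-9375550 at 7.89%, chr9:9382195-9401447 at 10.9% and chr9:9327433-9346849 at 15.5%, with chr2:14132294-14144009 at 13.1% and chr10:12007656-12031444 at 17.0%. The densest and the sparsest cluster differed both in median peak width, at 217 and 78 bases, and in peaks per kb, at 2.19 and 1.04. In chr3:48091835-48102370 narrow peaks, with a median width of 74 bases, covered 36.2% of the span at 4.27 peaks per kb. Over all members the median width was 95 bases and ranged from 51 to 1693 bases. No peak in the clusters was narrower than 51 bases and no gap between neighbours was shorter than 51 bases, so no closer neighbours are listed.

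Neighbouring sox10 summits were 352.5 bases apart at the median, over 766 neighbouring pairs, and the distances were not spread evenly. The commonest distance was 175 to 200 bases, with 102 pairs (13.3%), and a second rise stood at 350 to 400 bases, with 86 pairs (11.2%). Between them, 250 to 300 bases held 43 pairs (5.61%). Bands of 50 bases chosen after the distances had been seen gave 155 pairs (20.2%) at 175 to 225 bases and 33 pairs (4.31%) at 450 to 500 bases. By cluster, 23 of 27 had more pairs at 175 to 225 bases than at 250 to 300 bases, and 3 had fewer. For 350 to 400 bases the numbers were 20 with more and 3 with fewer. These counts are a description only, since the bands were chosen from the same pairs. Some also rest on few pairs, such as 2 and 1 in chr5:69775867-69784260 for the first comparison. Whether these distances follow repeats in the sequence, the length of the ChIP fragments or the settings of the caller was not tested.

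The share of pairs at 175 to 225 bases was highest in chr3:48091835-48102370, with 21 of 44 pairs and a median spacing of 195 bases. In chr9:9327433-9346849 the median was 213.5 bases and 14 of 34 pairs lay in that band. The share was lowest in chr8:29400440-29411359, with 0 of 29 pairs in that band and 7 at 350 to 400 bases. The second rise was not seen in chr3:48091835-48102370, with 2 pairs at 350 to 400 bases against 3 in the band between the rises. The widest median spacing was 753 bases, in chr9:9355366-9375550.

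**Figure D2:**
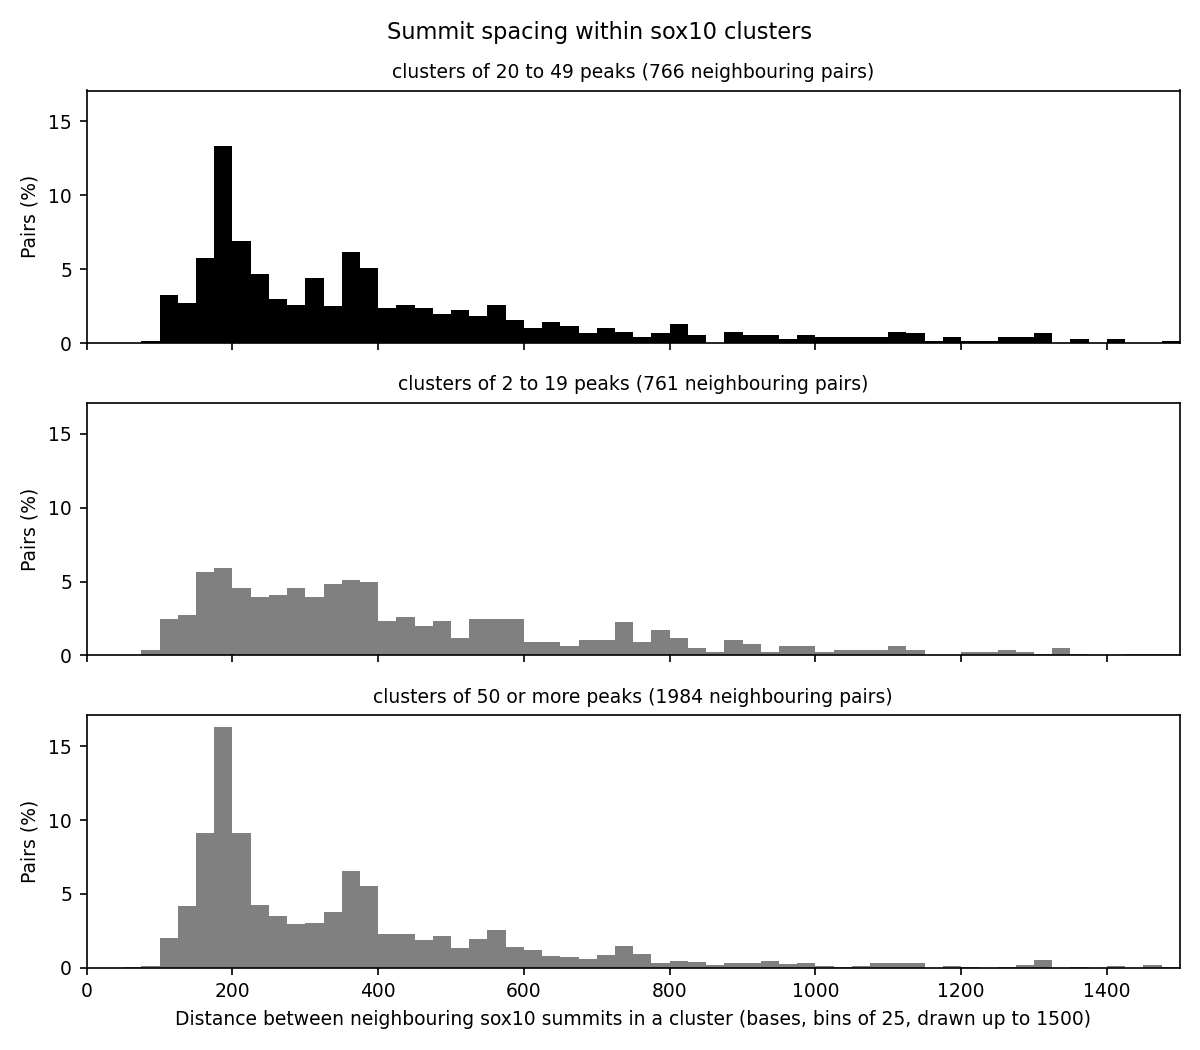
Distance between neighbouring sox10 summits inside clusters, in bins of 25 bases, as a percentage of all neighbouring pairs, for the clusters of 20 to 49 peaks (top), 2 to 19 peaks (middle) and 50 or more peaks (bottom). In the top panel the bin of 175 to 200 bases holds 13.3% of pairs and the bin of 350 to 375 bases 6.14%. In the other panels the bin of 175 to 200 bases is also the highest. In the middle panel it holds 5.91% of pairs, against 5.65% in the bin of 150 to 175 bases.

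The same distances led in the clusters of 50 or more peaks, while the bands differed little in the clusters of 2 to 19 peaks. In clusters of 50 or more peaks, 25.4% of 1984 pairs lay at 175 to 225 bases and 12.1% at 350 to 400 bases, against 6.50% at 250 to 300 bases. In clusters of 2 to 19 peaks the shares of 761 pairs were 10.5%, 10.1% and 8.67%. The clusters of 20 to 49 peaks, at 20.2%, 11.2% and 5.61%, lay between these for the shortest band. These shares describe 1 library, and the differences between them were not tested.

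Sox10 peaks with summits in the outermost 10% of the span at either end had fold enrichments with a median of 5.10, and the other members 4.92. The joining rule puts the first and last peak of every cluster at its ends, so the number of peaks there is not read. The end zones held 23.0% of the members, which is given only as a base for the next count. The strongest peak of the cluster lay in an end zone in 12 of 27 clusters. It was in the first 10% of the span in 3 and in the last 10% in 9. In 5 clusters it was the very first or last peak, and such peaks made up 6.81% of the members. These counts were not tested. Inside clusters the largest gap between peaks ran from 413 to 4974 bases, and it was above 4000 bases in 3 clusters. Outside, 16 clusters had another sox10 peak within 10 kb of an edge, while 7 had none within 100 kb on either side. The distance at which peaks were joined decided some of these edges. The smallest edge gap, 5001 bases, parted chr25:27504351-27510691 from chr25:27515693-27524830, and the largest gap kept inside a cluster, 4974 bases, lay in chr24:11726435-11748009.

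Many of the clusters had close neighbours. Of the 27 clusters, 13 lay within 100 kb of another cluster of 20 or more peaks, and 11 of them within 10 kb. The nearest pairs were those on chromosome 25 (5001 bases apart), chr10:12007656-12031444 with chr10:12036707-12050971 (5262 bases), and chr24:12452144-12458290 with a cluster of 218 peaks (5413 bases). On chromosome 9, 3 clusters with 79 peaks made up a run of 74.0 kb. On chromosome 7, chr7:66222769-66237739 lay between 2 clusters of 50 or more peaks, and the 3 together held 197 sox10 peaks in a stretch of 153 kb. Further pairs stood on chromosome 4, with 61 peaks in 33.1 kb, and on chromosome 24, with 58 peaks in 53.1 kb. With joining at 10000 bases instead, most of these merged, and 2 of 18 clusters remained within 100 kb of another. Of the 27 clusters, 9 lay within 1 Mb of a cluster of 50 or more peaks, and 6 had no other cluster of 20 or more peaks on their chromosome.

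H3K27ac of the cell line was found in 7 of the 27 clusters, 25.9% (interval 11.1% to 46.3%), and 20 held no summit. The 46 summits inside were shared unevenly. They numbered 20 in chr10:2486352-2506884, 8 in chr5:69775867-69784260, and 5 each in chr8:29400440-29411359, chr8:32011165-32019464 and chr10:23065283-23089692. Further, 2 lay in chr15:3544302-3552608 and 1 in chr19:7404697-7415505. Counted by peak, 55 of the 793 members (6.94%, interval 5.27% to 8.93%) shared at least 1 base with a zcrest H3K27ac peak. That share was 6.6% over all sox10 peaks, near the value of the members, but the list was uneven. It was 13.4% for isolated peaks (interval 10.4% to 16.9%) and 15.7% for peaks in clusters of 2 to 19 (13.5% to 18.2%). In clusters of 50 or more peaks, which hold 2000 peaks, it was 0.6% (0.310% to 1.05%). These differences were not tested. Without chr10:2486352-2506884 the share of the members was 29 of 748 (3.88%). The H3K27ac summits inside came to 118 per Mb (interval 86.3 to 157), against 30.2 per Mb (23.1 to 38.8) in the flanks, the 50 kb on either side with all sox10 clusters of 2 or more peaks left out. Without chr10:2486352-2506884 the inside value was 70.3 per Mb. In the 20 clusters without a summit it was 0 per Mb by definition, with 22.6 per Mb (15.3 to 32.3) in their flanks. Counting zcrest H3K27ac peaks only from a −log10 q of 5 upward left 22 summits inside, or 56.4 per Mb. The flanks were not counted at that limit, so this value is not set against the 30.2 per Mb.

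Each of the 46 zcrest H3K27ac peaks inside shared bases with at least 1 member sox10 peak. The H3K27ac summit itself lay inside a sox10 peak in 42 of 46, and the median distance to the nearest sox10 summit was 37 bases, with a range of 1 to 425 bases. Sox10 peaks filled 54.0% of the bases of these 7 clusters when each was weighted by its number of H3K27ac summits. The acetylated peaks were modest within their own list: their median fold enrichment was 2.88, with a highest value of 5.45, against 5.03 for zcrest H3K27ac peaks in the flanks and 5.31 for the whole zcrest list. Their median width was 255 bases, against 273 bases in the flanks.

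The overlap of the 2 zcrest libraries was largest in chr10:2486352-2506884 among the 7 clusters. H3K27ac peaks covered 41.3% of the cluster and sox10 peaks 71.4%, and 26 of its 45 sox10 peaks touched H3K27ac. The 50 kb flanks held 0 zcrest H3K27ac summits, and the nearest one outside lay 68917 bases from the edge. H3K27ac fold enrichments there had a median of 2.56 and a highest value of 4.64. Inside the same span the tumor list had 0 summits, and it had 3 in the flanks.

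The other clusters with acetylation showed the mark at fewer places. H3K27ac covered 26.3% of chr5:69775867-69784260, 11.3% of chr8:32011165-32019464 and 10.9% of chr8:29400440-29411359. It covered 6.53% of chr10:23065283-23089692, 6.02% of chr15:3544302-3552608 and 1.59% of chr19:7404697-7415505. In all 7 the density of zcrest summits was higher inside than in the cluster's own flanks, which is a description, since the clusters were picked for having at least 1 summit.

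The tumor list was nearly empty inside the clusters. A single tumor H3K27ac peak lay there, chr10:12049495-12049660, with a fold enrichment of 3.65, in chr10:12036707-12050971, a cluster with 0 zcrest H3K27ac summits. This was 2.56 summits per Mb inside (interval 0.0649 to 14.3), against 36.1 per Mb (28.3 to 45.4) in the flanks. At the flank rates 11.8 zcrest and 14.1 tumor summits would have lain inside. By peak, 1 of 793 members (0.126%, interval 0.00319% to 0.701%) touched tumor H3K27ac, against 0.429% of all sox10 peaks, a value inside the interval. The flanks held 61 zcrest and 73 tumor summits over 2.02 Mb, and in 9 of the 27 clusters there was no tumor summit either inside or in the flanks. Around isolated sox10 peaks the tumor density in the flanks was 45.3 per Mb (43.2 to 47.4). It was 28.5 per Mb (25.9 to 31.2) around clusters of 2 to 19 peaks and 10.5 per Mb (5.57 to 17.9) around clusters of 50 or more peaks.

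None of the 46 zcrest H3K27ac peaks inside the clusters overlapped a tumor peak, a share of 0% with an exact interval up to 7.71% (3 counts of 46 would be 6.52%). In the flanks 28 of 61 zcrest peaks (45.9%, interval 33.1% to 59.2%) did so. The zcrest peaks inside the clusters also had low fold enrichment, so peaks of like fold are given beside them. Of flank peaks no stronger than the strongest inside, 13 of 33 (39.4%, interval 22.9% to 57.9%) overlapped a tumor peak. Over the whole zcrest list outside the clusters, the share was 47.9%. It was 39.8% for peaks with a fold no higher than the highest inside, and 48.9% for the 2577 peaks no higher than the median inside. In clusters of 2 to 19 sox10 peaks it was 3 of 120 (2.50%, interval 0.519% to 7.13%). The part of fold enrichment in these shares was not tested. The cell line and the tumor come from different fish and from culture and tissue, which cannot be told apart here.

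**Figure D3:**
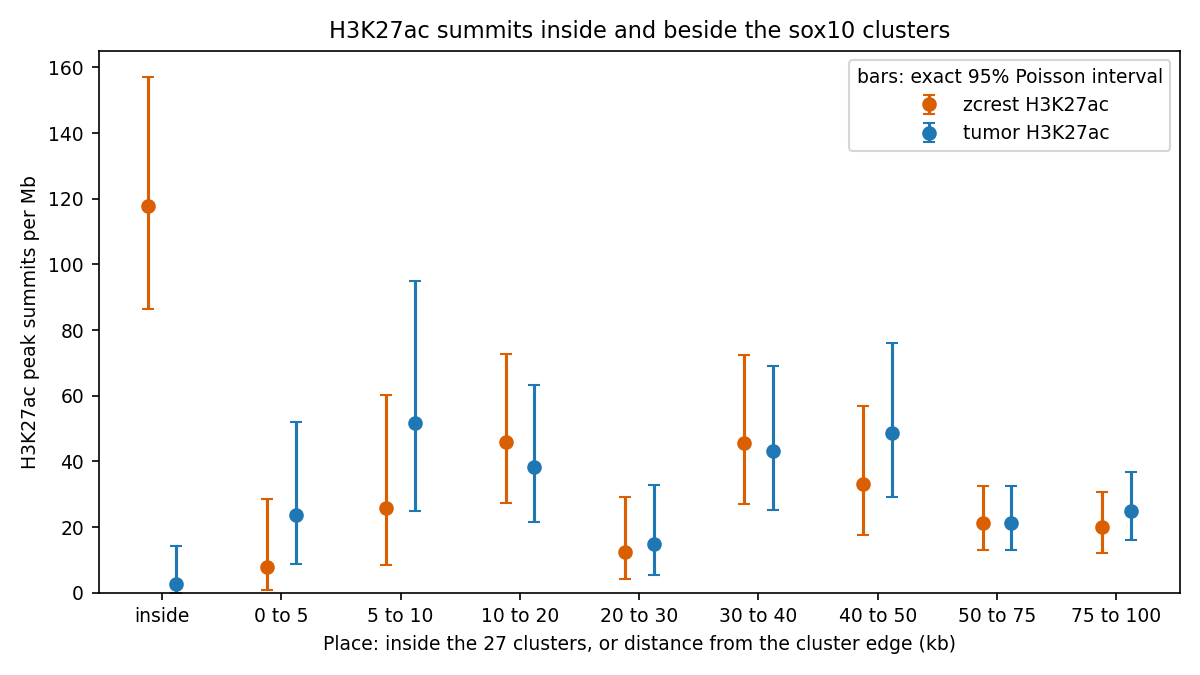
H3K27ac peak summits per Mb inside the 27 clusters and by distance from the cluster edge in kb, for zcrest (orange) and the tumor (blue). Points are counts divided by length, with all sox10 clusters of 2 or more peaks left out of the outside bins, and bars are exact 95% Poisson intervals for counting error. Inside, zcrest stands at 118 and the tumor at 2.56, while from 50 kb outward both stand between 19.9 and 24.9.

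In the first 5 kb beyond the edge there were 2 zcrest summits (7.95 per Mb, interval 0.963 to 28.7) and 6 tumor summits (23.9 per Mb, 8.75 to 51.9). From 5 to 10 kb the densities were 25.8 per Mb in zcrest and 51.7 per Mb in the tumor, from 5 and 10 summits. From 10 to 20 kb they were 46.0 per Mb in zcrest and 38.4 per Mb in the tumor, and from 50 to 75 kb they were 21.2 per Mb in each. Around the 7 clusters with zcrest H3K27ac the densities from 50 to 75 kb were 25.7 per Mb in zcrest and 51.4 per Mb in the tumor. Around the 20 without it they were 18.7 per Mb in zcrest and 4.69 per Mb in the tumor, the latter from 3 summits. The tumor values varied with distance. From 40 to 50 kb they were 57.1 per Mb around the 7 and 43.9 per Mb around the 20, and from 75 to 100 kb 48.6 and 12.3 per Mb. By the joining rule no sox10 peak lies in the first 5 kb, while all 46 zcrest H3K27ac peaks inside touched one. The zcrest intervals inside and in the first 5 kb did not overlap, while the tumor intervals did, which is a description only. These intervals count each summit singly, and 20 of the 46 zcrest summits inside lay in 1 cluster. Surroundings also varied between clusters. In 8 clusters there was no H3K27ac summit of either source inside or in the flanks, and zcrest flanks ranged from 0 to 12 summits and tumor flanks from 0 to 14.

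Clusters with zcrest H3K27ac had stronger sox10 peaks than clusters without it. The cluster medians of sox10 fold enrichment ran from 5.71 to 7.92 in the 7 clusters with the mark, with a middle value of 7.49, and from 3.47 to 5.77 in the 20 clusters without it, with a middle value of 4.48. The ranges overlapped narrowly, since 1 cluster without the mark, chr2:14132294-14144009, stood above the lowest cluster with it. Sox10 peaks also tended to cover more of the span, at a median of 50.7% with the mark and 23.3% without it. Median summit spacing had close middle values, at 361 bases with the mark and 362.5 bases without it, but different ranges. It ran from 329.5 to 377 bases with the mark and from 195 to 753 bases without it. The largest gap inside a cluster had medians of 813 bases with the mark and 2280.5 bases without it. The −log10 q of the sox10 peaks, which depends on read number as well as fold, had medians of 9.34 with the mark and 8.95 without it, so the fold and the q did not separate the clusters alike. These are clusters of 1 library, and no test was made over them.

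**Figure D4:**
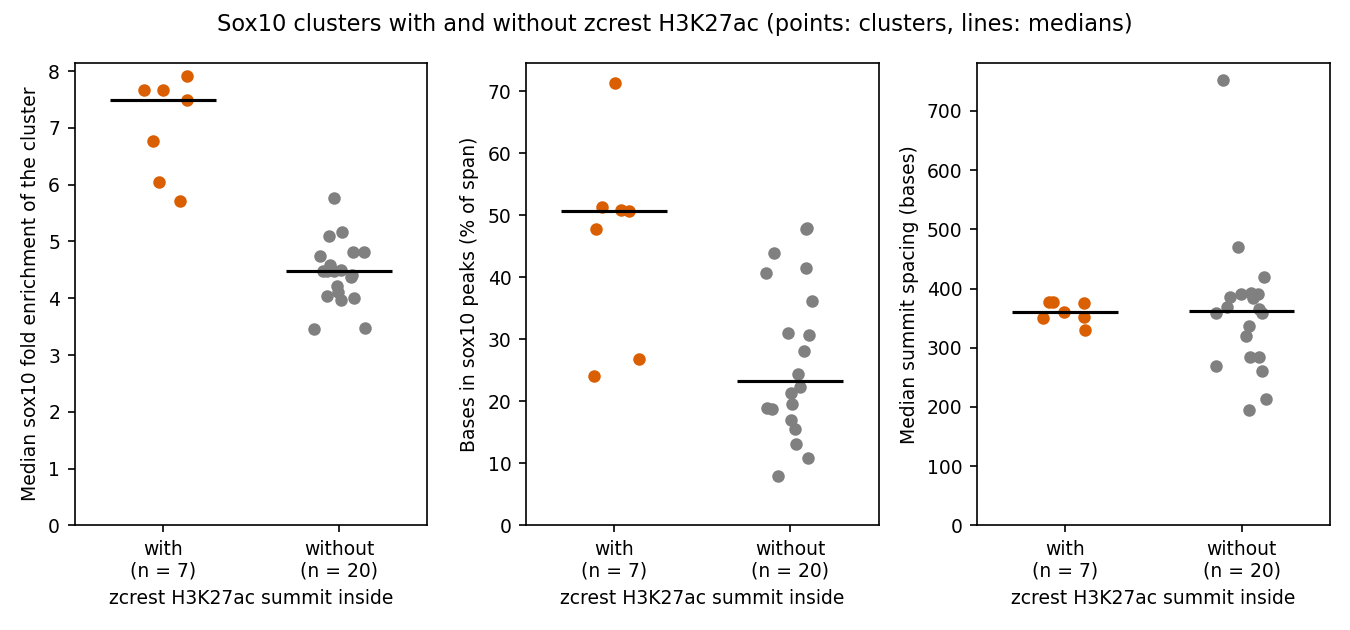
The 27 clusters split by whether a zcrest H3K27ac summit lies inside, with 7 clusters on the left of each panel and 20 on the right. Points are clusters and black lines are medians. Panels show the median sox10 fold enrichment (7.49 with and 4.48 without the mark), the share of the span in sox10 peaks (50.7% and 23.3%) and the median summit spacing in bases (361 and 362.5).

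Within the 7 acetylated clusters the difference continued at the level of peaks. Fold enrichment had a median of 8.84 over the 55 sox10 peaks on H3K27ac, against 6.76 over the 153 members of the same clusters off H3K27ac and 4.41 over the 585 members of the other clusters. The 55 peaks were unevenly spread, with 26 in chr10:2486352-2506884, 8 on chromosome 5, 6 in chr8:29400440-29411359, 6 in chr10:23065283-23089692, 5 in chr8:32011165-32019464, 3 on chromosome 15 and 1 on chromosome 19. On-mark peaks had the higher median fold in 5 of 7 clusters and the greater median width in 7 of 7, where the chromosome 19 value is that of 1 peak. The exceptions in fold were chr5:69775867-69784260, at 7.22 on and 7.67 off the mark, and chr15:3544302-3552608, at 4.53 on and 6.05 off. A wide sox10 peak is more likely to touch another peak by its length alone, and the part of width in this was not tested.

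The strongest members came from 5 clusters, each with zcrest H3K27ac. The first were chr8:32015983-32016212, with a sox10 fold enrichment of 25.2, and chr8:32014553-32014624, with 24.1, both in chr8:32011165-32019464. Next came chr10:23084444-23084692 at 17.0, chr8:29405859-29406311 at 16.0 and chr8:32016648-32016762 at 15.4. The cluster chr10:2486352-2506884 gave chr10:2495932-2496018 at 15.2, chr10:2500983-2501474 at 14.3 and chr10:2496246-2496564 at 14.0. The last of the first 10 were chr10:23083335-23083424 at 14.0 and chr5:69782575-69783106 at 13.7. Of these 10 peaks, 9 lay on zcrest H3K27ac, against 6.6% of all sox10 peaks on numbered chromosomes. The peak without zcrest H3K27ac was chr8:29405859-29406311. On tumor H3K27ac lay 0 of the 10, against 0.429% of all sox10 peaks, so that 0 is near the background.

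The acetylated clusters had no large neighbours. None of the 7 lay within 100 kb of another cluster of 20 or more peaks, against 13 of the 20 without the mark, and 0 of the 7 lay within 1 Mb of a cluster of 50 or more peaks. This difference was not tested. Nearness is mutual, so the 13 clusters are not independent observations. The count also depends on the joining distance, since 2 of 18 clusters lay within 100 kb of another with joining at 10000 bases. Some of the 7 had smaller sox10 clusters beside them. A cluster of 11 sox10 peaks ended 6965 bases before chr5:69775867-69784260, and the map shows zcrest H3K27ac peaks in it as well.

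Set beside the other sizes of cluster, the clusters of 20 to 49 peaks took a middle place in zcrest H3K27ac. Zcrest H3K27ac summits numbered 118 per Mb in clusters of 20 to 49 peaks, 238 per Mb (interval 197 to 284) in clusters of 2 to 19 peaks and 14.7 per Mb (7.32 to 26.2) in clusters of 50 or more peaks. The intervals for counting error did not overlap, but they count each summit singly, and summits were bunched within clusters. Of the 46 summits behind the first value 20 lay in 1 cluster, and all 11 behind the last lay in 1 cluster. The order of these densities was not tested. The shares of clusters with a zcrest summit were 25.9%, 32.1% and 6.25%, with intervals that overlap between the clusters of 20 to 49 peaks and either other size. For the tumor the densities inside were 2.56, 9.90 and 5.33 per Mb in the same order, with overlapping intervals. Median sox10 fold enrichment was 4.94, 6.26 and 4.25 in that order.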

How the data were processed

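The 3 peak lists analysed were zcrest sox10, zcrest H3K27ac and tumor H3K27ac. Reads were aligned with Bowtie to Zv9 and peaks called with MACS2 version 2.0, per the submitters' processing notes. The Bowtie version, control and calling thresholds were not given in the sources used here. Each of the deposited lists gives a position and summit, a fold enrichment (a ratio to the caller's background), the −log10 of p and q, and a score that was the −log10 q times 10, cut to a whole number, in 100% of peaks. The highest q in the sox10 list was 0.0497. Per the labels, each list is 1 library.

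Peaks were joined at 5000 bases, and H3K27ac peaks were counted inside a cluster by summit and on a sox10 peak by 1 shared base. Flanks were 50 kb with all sox10 clusters of 2 or more peaks removed and overlaps counted once. Shares carry Clopper-Pearson and densities exact Poisson 95% intervals. Python 3.11.15, numpy 2.4.6, pandas 2.3.3, scipy 1.17.1 and matplotlib 3.10.9 were used, and the counting was tested on simulated data. Alternatives changed the joining distance, the q limit, the overlap rule, the flank and the distance called near. With 1 library per group no test between conditions was possible. Members, lists and rules were chosen with earlier results of these data known. The named regions are the 10 clusters with most peaks, the 5 at each extreme of length and of cover, the 5 with most zcrest summits, all with a tumor summit, the 5 nearest to another cluster and the 10 strongest peaks. The cluster chr7:66222769-66237739 and the tumor peak chr10:12049495-12049660 were named after their values had been seen. Positions are 1-based. The input libraries were not used here.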

Additional observations from a re-analysis of the deposited data

Results flagged for a closer look

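Pooled over the 27 clusters, the contrast between the inside of the clusters and their 50 kb flanks ran in opposite directions in the 2 sources. The density of H3K27ac summits inside was 3.90 times that of the flanks in zcrest and 0.0709 times that of the flanks in the tumor. The same directions were seen in the other sox10 parts, so they are not particular to these clusters. The zcrest and tumor ratios were 8.09 and 0.348 in clusters of 2 to 19 peaks and 1.40 and 0.510 in clusters of 50 or more. For isolated peaks, where inside means the peak itself, they were 16.5 and 0.609. The tumor ratios of these parts rest on 5, 4 and 1 summits inside. All zcrest summits inside lay in 7 clusters. The other 20 clusters were set apart for holding no zcrest summit, so their 0 per Mb inside is by definition and is given without an interval. It is therefore not read against their flanks, which held 22.6 zcrest summits per Mb (15.3 to 32.3). In the same 20 clusters the tumor had 3.35 per Mb inside (0.0848 to 18.7) and 27.9 per Mb in the flanks (19.6 to 38.5). The tumor value rests on 1 summit inside. There is 1 library of each, and the differences between the ratios were not tested.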

How the results depend on the processing

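No paired analysis was possible because each group has 1 library. Of 62 alternatives to 14 values, 43 stayed inside the interval or spread of the reported value, or within 1.5 times of it. The limit of 1.5 times was used for counts and for the median summit spacing. The other 19 moved. A reversal could be recorded only for the sox10 fold of clusters with and without zcrest H3K27ac, where 0 alternatives reversed. Joining at 10000 bases gave 18 clusters, 10.9% of members on zcrest H3K27ac, 172 zcrest summits per Mb, 0% and 0 per Mb for the tumor with 0 clusters holding a tumor summit, and 2 clusters near another. With that joining 8 of the 18 clusters held a zcrest summit, against 7 of 27. This was labelled as unmoved because only the counts of clusters were compared, not their shares. Joining at 2500 bases gave 2 clusters with a tumor summit. Sox10 peaks with a −log10 q of 5 or more gave 19 clusters, 0% and 0 per Mb for the tumor, 0 clusters with a tumor summit, and 6 near another. H3K27ac peaks at that limit gave 3.91% of members on zcrest H3K27ac and 56.4 summits per Mb. Without the cluster holding the most summits of its source, the zcrest values were 3.88% and 70.3 per Mb and the tumor values 0% and 0 per Mb. The tumor values were bound to be 0, since only 1 cluster held a tumor summit. The zcrest values could only fall, since the cluster left out had the highest share and density. Added after the data had been seen, leaving out clusters within 1 Mb of a cluster of 50 or more peaks kept 18 clusters, with 171 zcrest and 0 tumor summits per Mb. Both moves were fixed in advance. All 46 zcrest summits were kept, since 0 of the 7 clusters with zcrest H3K27ac were left out. The only cluster with a tumor summit was left out. The higher sox10 fold of clusters with zcrest H3K27ac (3.01 fold units between medians) was 3.06 with joining at either distance and 1.92 in clusters of 5 to 19 peaks. The cause of the remaining moves was not tested. Depth is unknown, so an H3K27ac peak not listed may have been too weak to call.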
